A study of Mus musculus with 15 samples.

Results

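Cardiac mesenchyme transcription factors are the genes Nkx2-5, Gata4, Gata6, Tbx20, Tbx5, Hand2, Tcf21 and Isl1, which together set up and maintain the muscle and connective tissue of the developing heart. They were taken by name from the deposited gene tables, where all 8 had a row among 24015 genes. Only 4 of them, Nkx2-5, Gata4, Gata6 and Tbx20, held enough counts to be tested, and the other 4 held 10 counts in all. The genes were followed as signs of the identity of fibroblast cultures that carried or lacked the histone methyltransferase NSD2.

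These factors work as a network. NKX2-5, a homeodomain protein, and the zinc finger proteins GATA4 and GATA6 bind heart enhancers side by side and help each other's activity. T-box proteins such as TBX5 and TBX20 join them. HAND2, a basic helix-loop-helix protein, and the LIM homeodomain protein ISL1 mark progenitors that build the right ventricle and outflow tract, and TCF21 marks the precursors of cardiac fibroblasts in the epicardium. None is restricted to the heart: GATA4 and GATA6 also act in endoderm and gonad, HAND2 in limb buds and TCF21 in kidney and lung mesenchyme.

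The RNA came from murine embryonic fibroblasts (MEFs), cells of embryonic connective tissue kept in culture, of strain c57bl/6. Cultures were labelled wild type (WT, Nsd2 intact) or NSD2 KO (KO below). Naive cells had seen no interferon, and pretreated cells had been given 100 units per ml of recombinant mouse interferon beta for 3 h, washed and kept without it for 24 h. Both kinds were taken at 0 h or after 2 h in interferon beta, which gave 8 groups of 2 libraries each, except 1 library for KO naive 2 h, so 8 WT and 7 KO libraries. How the KO was made, and from how many embryos or cultures each genotype came, is not given in the sources used here, so genotype and culture cannot be told apart. Nothing in the labels ties replicates to different cultures or animals, so p-values measure only how far these libraries spread, possibly for technical reasons. In RNA from whole cultures, fewer cells of a type and less RNA per cell cannot be told apart either.

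The libraries held 17170845 to 44116418 gene counts. Levels are in CPM, a gene's count scaled to the gene counts of its library, and changes are log2 fold changes ± SE from edgeR's quasi-likelihood test, called at a Benjamini-Hochberg adjusted p below 0.05 over 13802 tested genes. The ribosomal transcript Rn45s and Lars2 took 10.6% to 29.4% of the counts, and 3 libraries stood apart with 10.6% to 19.0% (WT naive 0 h replicate 1, WT pretreated 2 h replicate 1 and KO pretreated 0 h replicate 2). Whsc1, the older symbol of the targeted gene, was counted in every library, at 106 to 151 CPM in WT and 91.5 to 124 CPM in KO, and its averaged change was -0.28 ± 0.025. A count over a whole gene does not check the deletion of a part, so WT and KO stand for the labels. The mesenchymal genes Vim and Col1a2 were abundant in all libraries, at 3581 CPM or more and 2381 CPM or more. The cardiomyocyte genes Myh6, Myl7 and Myl2, which encode myosin chains, held at most 4 counts each over all libraries of a genotype. They do not stand for all cardiomyocyte genes. Tnnt2 had 8428 counts in WT and 327 in KO, and Nppb 64 in WT and 1747 in KO.

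The 4 measured factors did not move as a unit between genotypes. Nkx2-5 was counted in WT and all but missing in KO, Gata6 and Tbx20 were low in WT and 10.8-fold and 16.3-fold higher in KO on average, and Gata4 was modestly lower in KO. Averaged over the 4 conditions all 4 were called, 2 higher and 2 lower. The KO and WT libraries differ so widely that 79.4% of all tested genes were called in this comparison (41.3% higher and 38.2% lower), so a call by itself does not set the factors apart. The same holds in single conditions: 3 members were called at naive 0 h beside 67.1% of all genes, 3 at naive 2 h beside 61.2%, 4 at pretreated 0 h beside 64.7% and 4 at pretreated 2 h beside 66.3%. The sizes were less common. Changes of at least 8-fold upward, which Gata6 and Tbx20 had, were called for 4.68% of tested genes, and such changes downward, which Nkx2-5 had, for 2.41%. Each count of called members above includes Nkx2-5. That gene passed the filter on low counts through its WT libraries alone, so its call and its share here add nothing to its counts.

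**Figure D1:**
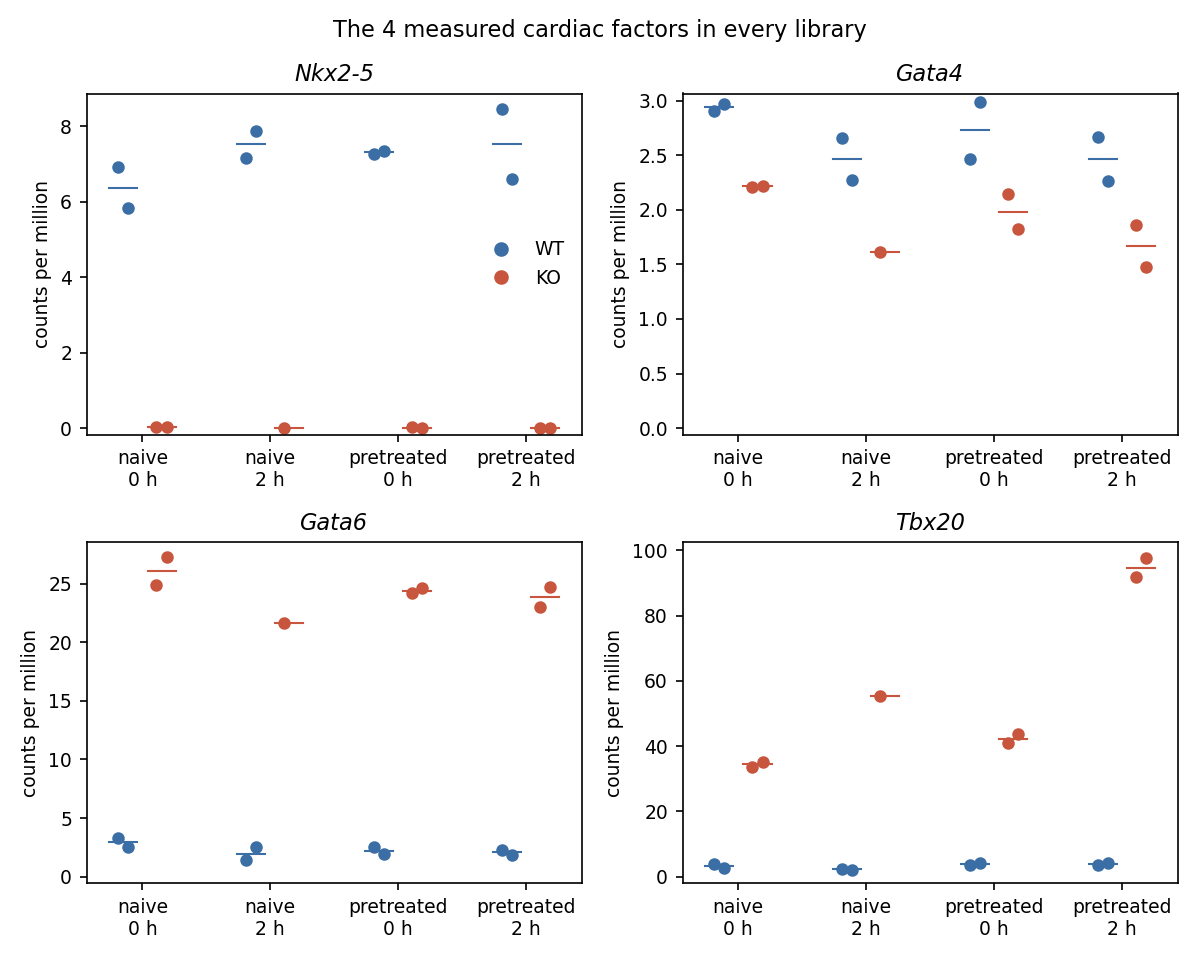
Level of Nkx2-5, Gata4, Gata6 and Tbx20 in CPM (linear axes from 0) in each library, by condition, with WT in blue and KO in red. Points are single libraries and short lines are group means. Nkx2-5 sits at 5.82 to 8.44 in WT and at 0.0417 or less in KO, while Gata6 and Tbx20 show the opposite order.

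Nkx2-5, the homeobox factor of early cardiac progenitors and of the spleen primordium, was counted almost only in WT. At naive 0 h the WT libraries held 6.92 and 5.82 CPM, and at naive 2 h 7.17 and 7.87 CPM. Pretreated WT libraries held 7.26 and 7.35 CPM at 0 h and 8.44 and 6.60 CPM at 2 h. Every WT library thus had between 100 and 288 counts of the gene. Among the KO libraries, both naive 0 h libraries and pretreated 0 h replicate 1 had 1 count each, and the other 4 had 0. The genotypes did not overlap at any condition.

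Summed over libraries, Nkx2-5 had 1598 counts in WT and 3 in KO, a ratio of 555 with a 95% counting interval of 190 to 2694. The interval covers counting error only. By condition the level in KO was lower by 212-fold (58.2 to 1754) at naive 0 h, by at least 72.4-fold at naive 2 h, by 471-fold (84.1 to 18665) at pretreated 0 h and by at least 184-fold at pretreated 2 h. The bounds use a floor of 3 counts over the KO group. Nkx2-5 passed the filter on low counts through its WT libraries alone, so its edgeR call in each condition adds nothing to these counts. All 7 KO libraries lay below all 8 WT libraries, as they did for 14.6% of tested genes.

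GATA4 is a zinc finger factor needed for the heart tube and for gonadal mesenchyme. Its gene was low in every library, with 43 to 121 counts. In naive WT cells Gata4 stood at 2.91 and 2.97 CPM at 0 h and at 2.66 and 2.28 CPM at 2 h, and in pretreated WT cells at 2.47 and 2.99 CPM at 0 h and at 2.67 and 2.26 CPM at 2 h. Naive KO cells had 2.21 and 2.22 CPM at 0 h and 1.61 CPM at 2 h, and pretreated KO cells 2.14 and 1.82 CPM at 0 h and 1.86 and 1.48 CPM at 2 h. The highest KO library (2.22 CPM) lay just under the lowest WT library (2.26 CPM), so the genotypes touched without overlapping, and 14.6% of tested genes likewise had all KO libraries below all WT libraries.

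Gata4 was lower in KO by 1.39-fold when averaged over the conditions (log2 change -0.47 ± 0.11, edgeR adjusted p = 3.0e-04). Single conditions gave -0.29 ± 0.20 (adjusted p = 0.19) at naive 0 h, -0.59 ± 0.27 (adjusted p = 0.062) at naive 2 h, -0.52 ± 0.20 (adjusted p = 0.025) at pretreated 0 h and -0.49 ± 0.21 (adjusted p = 0.039) at pretreated 2 h. Only the pretreated conditions passed, and those calls were lost under DESeq2 at like sizes (-0.51 in each, adjusted p = 0.13), when the 3 libraries with less Rn45s and Lars2 were left out (0.22 and 0.11), and on leaving out certain single libraries. With total counts alone the pretreated 0 h value had an adjusted p of 0.092. The naive 2 h value gained a call with only the compared groups (-0.61, adjusted p = 0.037) and without the 3 libraries (-0.61, adjusted p = 0.0497). The pretreated 0 h call was lost without WT replicate 2 or KO replicate 2, and the pretreated 2 h call without WT replicate 1, WT replicate 2 or KO replicate 2, with adjusted p up to 0.24 and 0.20. The averaged change was called in all 21 alternatives, with adjusted p of 0.0036 or less. Among all tested genes, 17.9% were as far or farther down in the averaged comparison.

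GATA6 is the close relative of GATA4 that shares much of its role in cardiac mesoderm and primitive endoderm. Gata6 was low in WT, at 3.29 and 2.56 CPM at naive 0 h, 1.45 and 2.51 CPM at naive 2 h, 2.50 and 1.91 CPM at pretreated 0 h, and 2.27 and 1.89 CPM at pretreated 2 h. In KO it stood at 24.8 and 27.2 CPM at naive 0 h, 21.6 CPM at naive 2 h, 24.2 and 24.6 CPM at pretreated 0 h, and 23.0 and 24.7 CPM at pretreated 2 h. The lowest KO library (21.6 CPM) lay far above the highest WT library (3.29 CPM), and the KO libraries stayed within 21.6 to 27.2 CPM over all conditions. All 7 KO libraries lay above all 8 WT libraries, as they did for 13.4% of tested genes.

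The log2 change of Gata6 in KO was 3.21 ± 0.12 at naive 0 h, 3.57 ± 0.16 at naive 2 h, 3.39 ± 0.13 at pretreated 0 h and 3.56 ± 0.13 at pretreated 2 h. Averaged, the level was 10.8-fold higher (3.43 ± 0.068, edgeR adjusted p = 1.3e-27), and 4.03% of tested genes were as far or farther up. A long noncoding gene that overlaps Gata6 and is listed as 1010001N08Rik (Gata6os) had 11 counts in WT and 96 in KO. The strand setting of the counting is not given in the sources used here. Reads of the pair could thus have been assigned to either gene or set aside as ambiguous. The part of this in the Gata6 counts (515 in WT and 5626 in KO) was not tested.

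TBX20 is a T-box factor of the heart tube, endocardial cushions and cardiac fibroblasts, and is also expressed in motor neurons. Tbx20 in WT stood at 3.87 and 2.68 CPM at naive 0 h, 2.48 and 1.99 CPM at naive 2 h, 3.54 and 4.14 CPM at pretreated 0 h, and 3.51 and 4.11 CPM at pretreated 2 h. In KO it reached 33.6 and 35.2 CPM at naive 0 h, 55.3 CPM at naive 2 h, 40.8 and 43.7 CPM at pretreated 0 h, and 91.7 and 97.7 CPM at pretreated 2 h. The KO libraries lay above every WT library, as they did for 13.4% of tested genes. The KO libraries also split by condition, with both 2 h groups above both 0 h groups, though the KO naive 2 h group was a single library.

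Averaged over conditions, Tbx20 was 16.3-fold higher in KO (4.03 ± 0.052, edgeR adjusted p = 2.7e-32), and 3.19% of tested genes were as far or farther up. The change was 3.42 ± 0.10 at naive 0 h and 3.38 ± 0.10 at pretreated 0 h, and 4.64 ± 0.12 at naive 2 h and 4.67 ± 0.094 at pretreated 2 h. The naive 2 h value rests on 1 KO library. Every alternative kept Tbx20, Gata6 and Nkx2-5 in the same direction in all 5 comparisons of genotype (201 of 201 values). These include fits with 1 library left out, but the single KO naive 2 h library could not be left out. The Nkx2-5 values among these add nothing to its counts, since it passed the filter through its WT libraries alone.

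**Figure D2:**
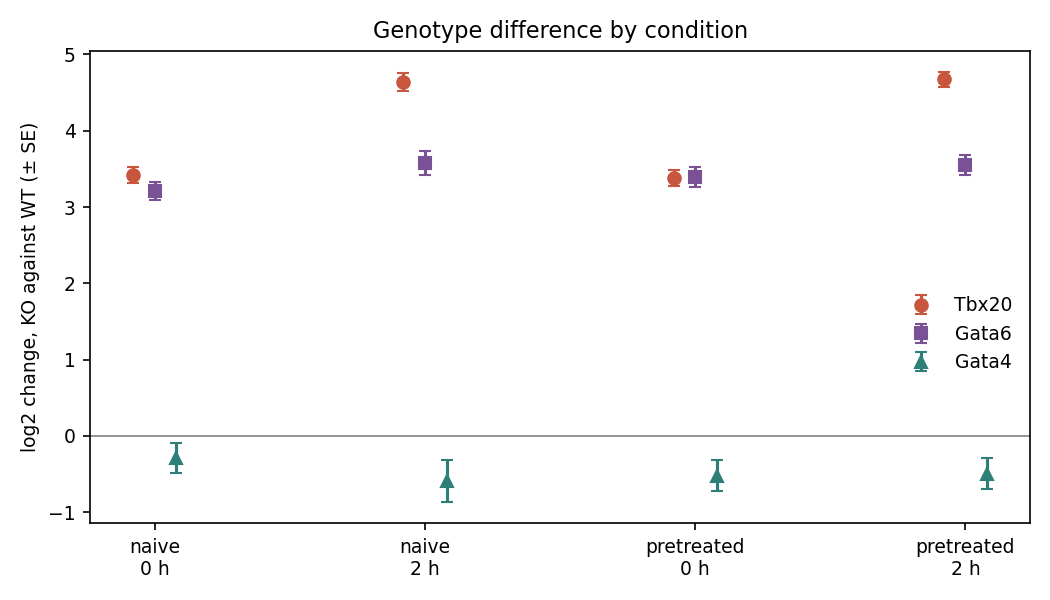
Log2 change of Tbx20, Gata6 and Gata4 in KO against WT in each condition, with SE bars. Tbx20 and Gata6 lie between 3.21 and 4.67, with Tbx20 higher at 2 h, and Gata4 lies between -0.59 and -0.29. Nkx2-5 is not drawn because KO held 0 or 1 count per library.

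Tbx5, the T-box factor of atrium, left ventricle and forelimb, was at the edge of detection. It had 0 to 2 counts per library, 4 in all WT libraries and 6 in all KO libraries, too few for a comparison. Hand2, Tcf21 and Isl1 had 0 counts in all 15 libraries. Over a genotype, a count of 0 allows up to 0.0135 CPM in WT and 0.0130 CPM in KO. Mesenchyme of the second heart field (Isl1, Hand2) and fibroblast precursors of the epicardium (Tcf21) were thus not detectable by these genes in cultures of either genotype.

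The promoters of the members with the widest genotype contrasts and an entry in the sequence table are shown for reference, since their genes were higher in opposite genotypes. RefSeq promoter entries on GRCm38.p6 (250 bases before to 50 after the start) were found for 5 of the 8 members. Capitals mark CpG dinucleotides, the bases at which DNA is methylated. The Tbx20 window is chr9:24774254-24774553 and the Nkx2-5 window chr17:26841516-26841815, both on the minus strand and written 5′ to 3′ along the gene.
Tbx20: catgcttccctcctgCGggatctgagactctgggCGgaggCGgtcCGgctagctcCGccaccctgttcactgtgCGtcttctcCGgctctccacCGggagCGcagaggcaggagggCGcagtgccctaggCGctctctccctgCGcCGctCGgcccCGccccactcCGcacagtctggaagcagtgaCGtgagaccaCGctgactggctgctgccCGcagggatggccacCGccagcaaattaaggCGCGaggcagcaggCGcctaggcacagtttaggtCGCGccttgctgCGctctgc
Nkx2-5: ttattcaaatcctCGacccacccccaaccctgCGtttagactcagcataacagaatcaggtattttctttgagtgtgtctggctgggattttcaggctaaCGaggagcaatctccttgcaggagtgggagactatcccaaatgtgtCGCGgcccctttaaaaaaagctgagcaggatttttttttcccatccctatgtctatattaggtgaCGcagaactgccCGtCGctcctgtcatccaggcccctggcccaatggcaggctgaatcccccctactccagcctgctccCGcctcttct

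The Tbx20 window held 26 CpG and 68.3% G and C, and 16.9% of 32851 promoters held as many CpG. The Nkx2-5 window held 9 CpG and 51.7% G and C, and 45.8% of promoters held as many. Motifs were searched by letters on both strands: the interferon-stimulated response element (in 3.44% of promoters), the gamma-activated site TTCNNNGAA (8.30%), the GATA site AGATAA (11.2%), the T-box site GGTGTGA (3.98%), the NK2 site CAAGTG (13.6%) and the E-box CANNTG (72.3%), which the NK2 site also matches. The Tbx20 window held none of these letters, and the Nkx2-5 window held 1 E-box, at bases 138 to 143. A match is a description of letters in the window, and so is the absence of one.

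Interferon raised Tbx20 in KO. After 2 h in interferon its level rose 1.86-fold in naive KO cells (0.89 ± 0.082, edgeR adjusted p = 3.4e-10) and 2.50-fold in pretreated KO cells (1.32 ± 0.064, adjusted p = 8.2e-17). It was the 1 member called in either comparison, beside 36.2% of tested genes called in naive KO cells (19.1% higher) and 31.5% in pretreated KO cells (17.9% higher). A rise in both was called for 12.1% of tested genes. With total counts alone, higher calls made up 22.0% of all calls in naive KO cells in place of 52.6%, and 32.9% in pretreated KO cells in place of 56.9%, and Tbx20 was still called higher in both. Both comparisons have their own baseline libraries, with 33.6 and 35.2 CPM before interferon in naive cells and 40.8 and 43.7 CPM in pretreated cells.

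In WT, no rise of Tbx20 was called. Its change was -0.32 ± 0.17 in naive cells (edgeR adjusted p = 0.17) and 0.03 ± 0.15 in pretreated cells (adjusted p = 0.94). With total counts alone, which moved the median change of all tested genes in naive WT cells from -0.02 to -0.27, Tbx20 was called lower there (-0.59, adjusted p = 0.022). The response differed between genotypes by 1.22 ± 0.19 in naive cells (adjusted p = 2.4e-05) and by 1.29 ± 0.17 in pretreated cells (adjusted p = 1.4e-06). Tbx20 was the 1 member called in each of these tests, beside 15.3% and 9.03% of tested genes. With 1 library left out at a time the difference ranged from 1.03 to 1.43 in naive cells and from 1.07 to 1.51 in pretreated cells. The naive difference rests on 1 KO library at 2 h. That library could not be left out, so the naive range does not cover it.

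**Figure D3:**
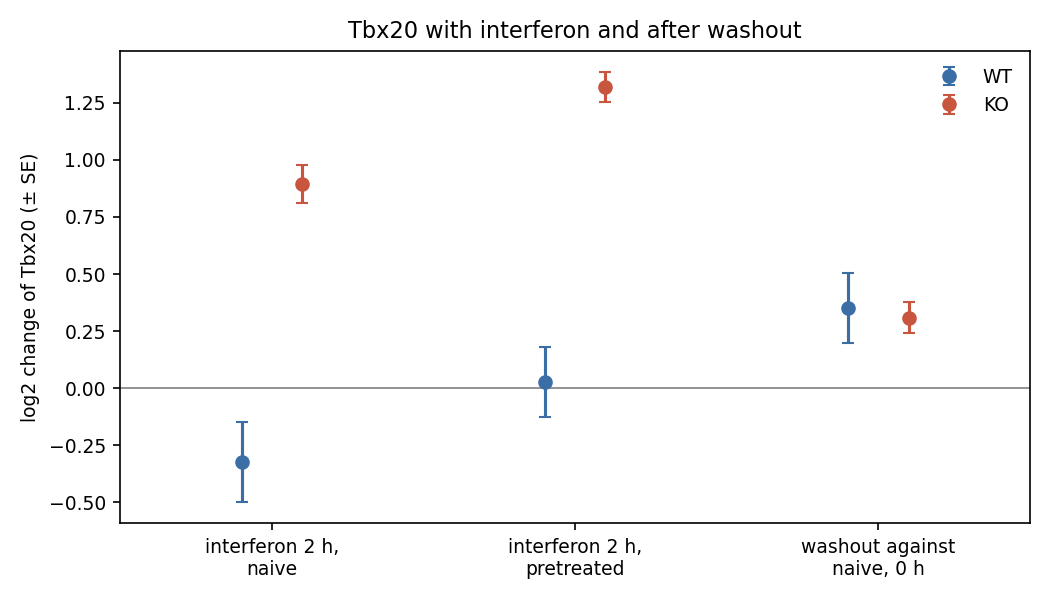
Log2 change of Tbx20 with SE after 2 h of interferon in naive and in pretreated cells, and at 0 h in pretreated against naive cells, for WT (blue) and KO (red). KO points lie at 0.89 and 1.32 for interferon, WT points at -0.32 and 0.03, and the washout points of the genotypes lie together at 0.35 and 0.31.

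Pretreated cells at 0 h, 24 h after the wash, were compared with naive cells at 0 h. Tbx20 at 0 h was higher in pretreated than in naive KO cells by 0.31 ± 0.069 (edgeR adjusted p = 0.0014), a call that was lost when libraries were scaled by total counts alone, at a like size (0.29, adjusted p = 0.27). In WT the change was 0.35 ± 0.15 (adjusted p = 0.0997), and the genotypes differed by -0.04 ± 0.17 (adjusted p = 0.94). In KO, Tbx20 was the 1 member called, beside 21.7% of tested genes. In the test of the genotype difference of washout 0 members were called by edgeR or DESeq2 and 0 had an unadjusted p below 0.05, beside 3.22% of tested genes called by edgeR. Over the 4 KO groups the order of Tbx20 was naive 0 h, pretreated 0 h, naive 2 h and pretreated 2 h. Neither pretreated 0 h against naive 2 h nor naive 2 h against pretreated 2 h was among the comparisons.

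Nkx2-5 in WT was the other member with a call. KO held too few counts of it for these comparisons. It was higher after 2 h in naive cells by 0.47 ± 0.13 (edgeR adjusted p = 0.0057, 1 member beside 30.6% of tested genes) and higher in pretreated than in naive cells at 0 h by 0.36 ± 0.13 (adjusted p = 0.038, 1 member beside 24%). Both share the naive 0 h libraries, of which replicate 1 is low in Rn45s and Lars2. Without that library the values were 0.45 (adjusted p = 0.087) and 0.35 (adjusted p = 0.23). Neither was called by DESeq2 (adjusted p = 0.062 and 0.22) or with total counts alone, and leaving out any 1 library ended the washout call.

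In pretreated WT cells interferon called 0 members by edgeR or DESeq2, and 0 had an unadjusted p below 0.05, beside 22.7% of tested genes called by edgeR. Gata4 and Gata6 were called in no interferon or washout comparison. Their changes within a genotype ranged from -0.25 ± 0.27 to 0.10 ± 0.19 for Gata4 and from -0.42 ± 0.20 to 0.12 ± 0.085 for Gata6. The lowest Gata6 value, in naive WT cells at 2 h, had an unadjusted p of 0.045 and an adjusted p of 0.12, and was called with total counts alone (-0.67) or without WT naive 2 h replicate 2 (-0.77). Gata4 and Gata6 were measured at 44 to 137 counts per library in WT, which limits what could be seen.

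Genes that share the heart program were read from lists of other cardiac factors, signals and structural genes. Every count of a list stands beside 41.3% of all tested genes called higher in KO and 38.2% called lower, and a count near these shares says nothing particular of a list. Of 31 other cardiac transcription factors, 21 were tested, and averaged over conditions 12 were higher in KO and 9 lower, with a median log2 change of 0.37 beside 0.02 over all tested genes. The largest rises were from near 0, in Tbx18, Tbx1 (counts given below) and Irx3. Tbx18, a T-box factor of epicardium, sinus venosus and somite, went from 5 counts in all WT libraries to 14.6 to 19.4 CPM in KO. Irx3, an Iroquois factor of the ventricular conduction system, had 0.219 CPM or less in WT and 12.9 to 36.6 CPM in KO. The TALE homeodomain genes Meis2 and Meis1 rose by 2.08 ± 0.034 and 1.93 ± 0.034.

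Other factors of that list took the opposite direction, as Nkx2-5 did. These are named after their values were seen. Hey2, a Notch-responsive repressor of the ventricle, fell from 8.82 to 13.5 CPM in WT to 0.174 to 0.473 CPM in KO (-5.20 ± 0.11). Mef2c, a MADS-box partner of GATA factors, changed by -3.25 ± 0.14, and Nr2f2, an atrial and venous nuclear receptor, by -1.40 ± 0.036. Tbx1, the T-box factor of the pharyngeal heart field, went the way of Tbx20, with 2 counts in WT and 658 in KO, a ratio of 316 (95% counting interval 87.1 to 2613). Hand1, Gata5, Mesp1 and Myocd had at most 5 counts each over all libraries.

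Signals that induce cardiac mesoderm changed in both directions, as tested genes did in general. Of 30 listed ligands, antagonists, receptors and targets, 22 were tested, 11 were higher in KO and 8 lower, with a median of 0.15. The BMP antagonist gene Nog was lower by -5.09 ± 0.22 and the BMP effector Smad1 by -1.04 ± 0.036, while the BMP target Id2 was higher by 1.20 ± 0.043. Fgfr2, a receptor for mesenchymal FGFs, was lower by -1.28 ± 0.036. Bmp2, Bmp5 and Shh, and the retinoic acid enzyme gene Aldh1a2, were at 0 counts in all libraries.

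The contractile and hormone genes of cardiomyocytes include targets of these factors. Of 20 listed, 10 were tested, with 4 higher and 4 lower in KO and a median of 0.03. These values lie near those of all tested genes (41.3% higher, 38.2% lower, median 0.02). Tnnt2, cardiac troponin T, fell with Nkx2-5, from 20.9 to 60.4 CPM in WT to 0.498 to 2.04 CPM in KO (-4.79 ± 0.065, edgeR adjusted p = 8.7e-32). Nppb, which encodes brain natriuretic peptide, rose from at most 0.816 CPM in WT to 1.09 to 16.4 CPM in KO (4.78 ± 0.19). Tnni1, slow skeletal and fetal cardiac troponin I, rose by 1.38 ± 0.14, and Myh7, a ventricular myosin, had 3 counts in WT and 66 in KO (21.1-fold, 95% counting interval 6.92 to 105). The summed level of the list was 29.4 to 69.1 CPM in WT and 9.64 to 27.7 CPM in KO, and most of the WT sum was Tnnt2.

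**Figure D4:**
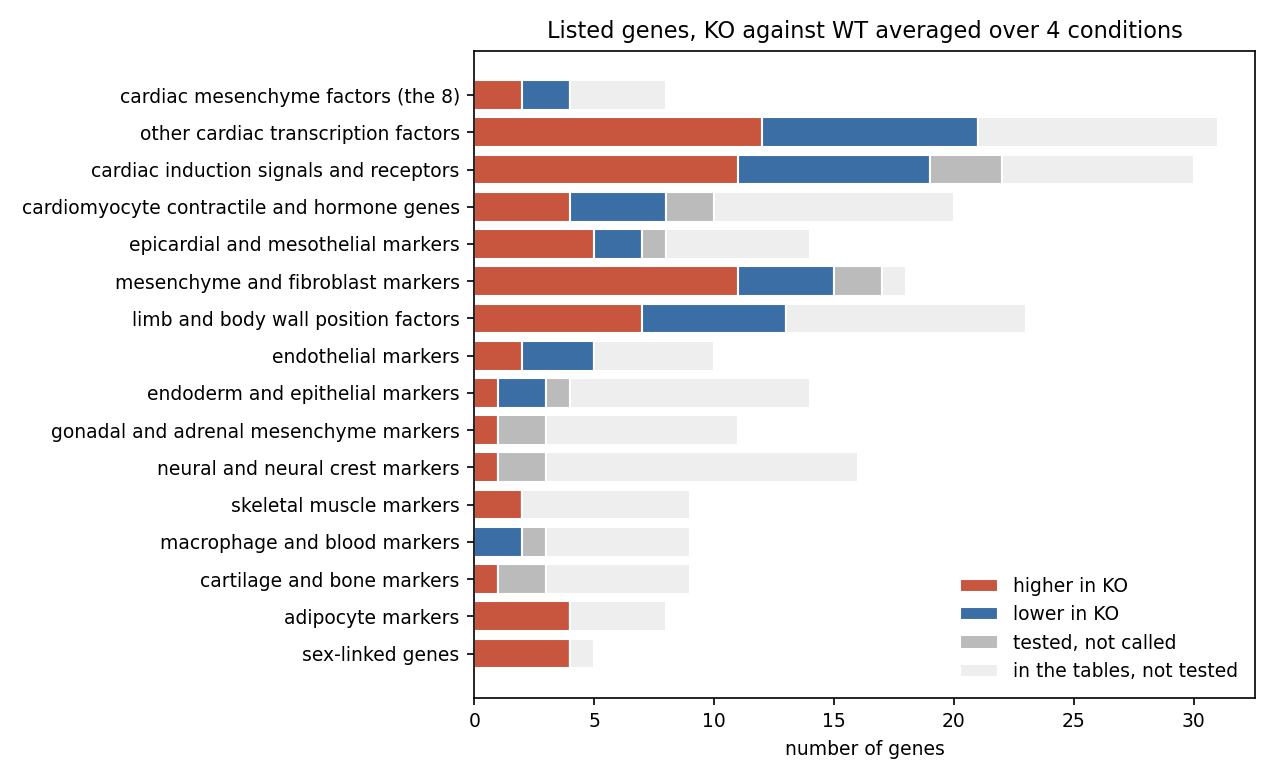
Number of genes per list that were called higher (red) or lower (blue) in KO, tested without a call (grey) or in the tables without enough counts for a test (pale), for KO against WT averaged over 4 conditions. Other cardiac factors have 12 higher and 9 lower, and the 8 cardiac mesenchyme factors have 2 higher, 2 lower and 4 not tested.

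Factors that mark limb and body wall positions changed in both directions, as tested genes did in general. Of 23 limb and body wall factors in the tables, 13 were tested, with 7 higher and 6 lower in KO and a median of 0.73. Pax3, of somite and neural crest, rose by 4.50 ± 0.15, while Tbx15, of limb and trunk dermis, fell by 0.94 ± 0.030 on the log2 scale. Msx2, a BMP target in limb and skull, changed by -2.63 ± 0.13 and Foxf2, of gut and palate mesenchyme, by -4.54 ± 0.21. Epicardial and mesothelial markers were mixed, with 5 higher and 2 lower of 8 tested. Tbx18 and the keratin gene Krt19 (1.52 ± 0.035) and the complement gene C3 (4.65 ± 0.14) were higher, Msln was lower by -1.02 ± 0.030, and the defining gene Wt1 was at 0 counts in all libraries. Summed, these markers gave 113 to 146 CPM in WT and 137 to 165 CPM in KO.

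Mesenchyme and fibroblast markers had 11 members higher and 4 lower of 17 tested, with a median of 0.39. Thy1, a surface marker of fibroblasts, had 0.0474 to 0.175 CPM in WT and 29.6 to 33.9 CPM in KO. Pdgfra, the PDGF receptor of mesenchyme and epicardium-derived fibroblasts, had 4.49 to 7.40 CPM in WT and 37.7 to 124 CPM in KO, and the homeobox gene Prrx2 and the collagen gene Col3a1 rose by 2.68 ± 0.050 and 1.76 ± 0.037. The 4 called lower, named here after their values were seen, were the proteoglycan gene Dcn (-2.86 ± 0.080), Col1a2 (-0.83 ± 0.027), Col1a1 (-0.35 ± 0.041) and Vim (-0.32 ± 0.026). The part of these markers' differences in those of Gata6, Tbx20 and Nkx2-5 was not tested.

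Markers of other cell types differed as well. Cartilage and bone markers summed to 38.1 to 71.2 CPM in WT and 192 to 378 CPM in KO. Most of the KO sum was Col2a1, cartilage collagen, at 0.996 to 1.97 CPM in WT and 140 to 328 CPM in KO. It was the 1 marker called, of 3 tested and 9 listed. Neural and neural crest markers summed to 16.1 to 24.7 CPM in WT and 51.5 to 72.1 CPM in KO, with 1 of 3 tested called (Tubb3, 1.80), and 5 of the 16 were at 0. Adipocyte markers rose in 4 of 4 tested (3.61 to 5.50 CPM in WT, 17.4 to 28.5 CPM in KO, Cebpa 6.14). Adipoq, Plin1, Cfd and Lep of that list had at most 6 counts each over all libraries of a genotype. Skeletal muscle markers rose in 2 of 2 tested (1.02 to 2.15 CPM in WT and 3.84 to 9.90 CPM in KO), with Acta1 at 3.19. Myod1, Pax7 and Ckm, which define that lineage, were at 0.

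Endothelial markers had 2 higher and 3 lower of 5 tested (1.77 to 3.15 CPM in WT and 5.64 to 7.89 CPM in KO), with Egfl7 at 2.89 and Kdr at -2.49. Most of the KO sum was Egfl7, with 168 counts in WT and 1271 in KO. Tek also rose (21 and 143 counts), while Kdr (140 and 29) and Cdh5 (124 and 46) fell. Endoderm and epithelial markers had 1 higher and 2 lower of 4 tested (7.74 to 12.2 CPM and 6.16 to 7.24 CPM), and Sox17 was at 0. Gonadal and adrenal markers had 1 higher and 0 lower of 3 tested (3.58 to 6.01 CPM and 3.72 to 6.84 CPM). Macrophage and blood markers had 0 higher and 2 lower of 3 tested (3.05 to 5.12 CPM and 1.45 to 2.54 CPM). The part that any of these cell types has in the levels of the cardiac factors was not tested.

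The Y-linked genes gave 1 more difference between the cultures. Ddx3y, Eif2s3y, Kdm5d and Uty stood at 10.1 CPM or more in all libraries and were 2.26-fold to 3.08-fold higher in KO. Xist, expressed from the inactive X chromosome, was near the floor in both genotypes. It had 1 to 12 counts per library in WT and 1 to 5 in KO (40 and 19 in all), at 0.288 CPM or less. The part of the Y-linked difference in that of the cardiac factors was not tested.

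Genes whose pattern was most like a member's were found by Pearson correlation of log2 CPM over the 15 libraries. The libraries share genotype groups and conditions, so these are descriptions. For Nkx2-5 the nearest were Eps8l2, Clec2f and Zic5 (r = 0.999, 0.999 and 0.998), and 895 genes had r of at least 0.95. For Gata6 they were Glis3, Zfhx4 and Meg3 (each r = 0.996), among 955 such genes. Tbx20, which also follows interferon in KO, had as nearest the MHC class I gene H2-K1 (r = 0.994), Slc12a2 and B3gnt5, among 483 such genes. H2-K1 stood at 0.368 to 0.679 CPM in WT and 18.8 to 89.8 CPM in KO. Gata4, with its small change, had no gene at 0.95, and its nearest was 1810043G02Rik (r = 0.929).

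Nearest protein-coding genes in the tables, 2 on each side by gene order in GRCm38.p6, were read for the 4 measured members. Of 16 neighbours 11 were tested, 6 were higher in KO and 4 lower, and 0 changed by 8-fold or more. Over all tested genes 79.4% were called, and 4.68% and 2.41% were at least 8-fold higher and lower, so few changes of that size would be met in any 11 genes. Beside Nkx2-5, Bnip1 changed by -0.39 ± 0.044 and Kifc5b by 0.56 ± 0.074. Beside Gata6, Mib1 changed by 0.32 ± 0.025, Rbbp8 by 0.10 ± 0.032 and Abhd3, with few counts, by -1.76 ± 0.38. Beside Tbx20, Herpud2 changed by -0.39 ± 0.056 and Dpy19l2 and Cypt4 held at most 3 counts in all, and beside Gata4, Fdft1, an enzyme of sterol synthesis, rose by 1.05 ± 0.024. Among the neighbours of the 4 unmeasured members, Emb, beside Isl1, rose by 4.31 ± 0.049, and Tbx3, beside Tbx5, changed by -0.28 ± 0.072.

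**Figure D5:**
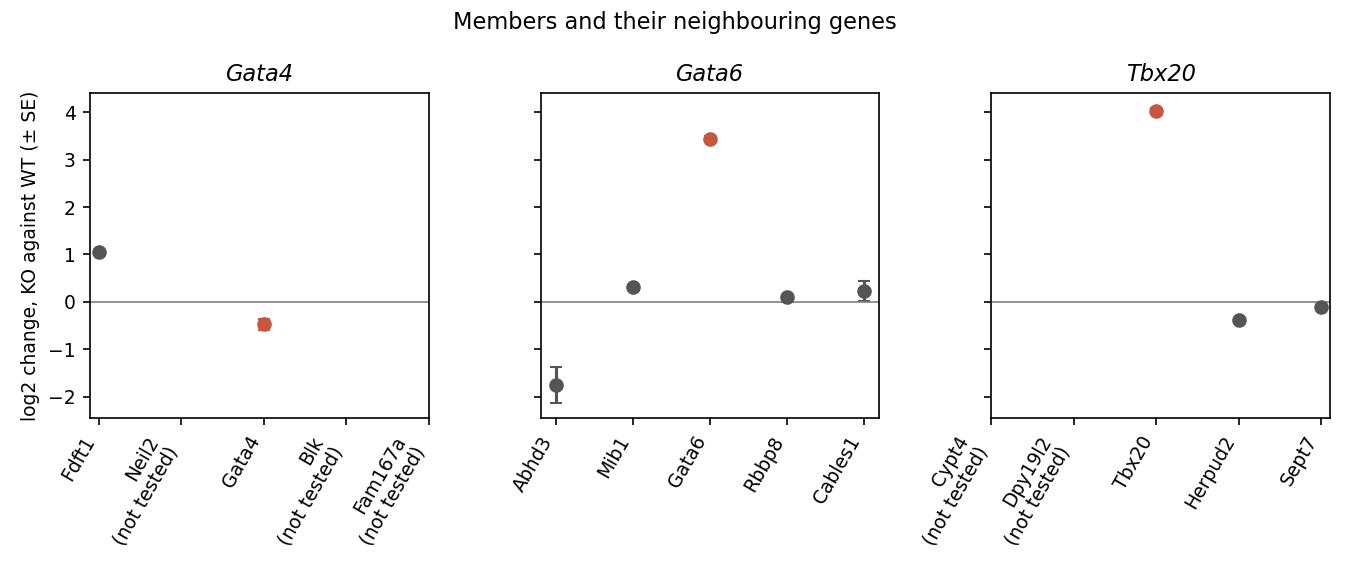
Log2 change in KO against WT, averaged over conditions, with SE, for Gata4, Gata6 and Tbx20 (red) and the nearest protein-coding genes on either side in order along the chromosome (grey). Gata6 at 3.43 and Tbx20 at 4.03 stand above their neighbours, which lie between -1.76 and 0.32, while Fdft1 at 1.05 lies above Gata4 at -0.47.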

How the data were processed

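RNA from c57bl/6 MEFs was sequenced as paired-end reads (HiSeq2000, NuGEN Ovation kit), per the labels' protocols. What the authors deposited for each library is a table of raw read counts by gene symbol. The submitters' processing notes name bcl2fastq 2.15, STAR 2.5.2b, HTSeq and the build mm9. Annotation and strand setting: not given in the sources used here. HTSeq's summary lines were left out. Between 35.1% and 41.3% of uniquely aligned reads fell outside genes.

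From these counts, TMM factors (0.895 to 1.22) and the quasi-likelihood test of edgeR 4.0.16 in R 4.3.3 were computed with 8 groups over 15 libraries (7 residual degrees of freedom), after filterByExpr with a minimum count of 10. The single KO naive 2 h library borrows its spread from the other groups. No replicate pair agreed within sampling noise: chi-square values divided by their degrees of freedom were 1.95 to 4.84 with Rn45s and Lars2 left out. Where 1 group had 0 counts, the fold is a bound computed from 3 counts in that group. Ratios on 1 to 3 counts carry an exact 95% counting interval. Genes named were all members, their neighbours, up to 4 tested genes per list with the smallest p among called genes without overlap of genotypes, and the 3 genes most similar to each measured member. The text also names genes outside this rule, such as Hey2, Mef2c, Nr2f2, Tbx1 and Dcn, chosen after their values were seen, and defining markers or genes with few or 0 counts. The members and the lists were chosen with earlier results of these data known. Alternatives were RLE factors, total counts, no filter, DESeq2 1.42.0, only the compared groups, a replicate block, Rn45s and Lars2 left out, and libraries left out. The steps were tested on simulated counts. Figures were drawn with matplotlib 3.10.9.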

Additional observations from a re-analysis of the deposited data

Results flagged for a closer look

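The response of Tbx20 to 2 h of interferon differed between genotypes by a test of the difference itself, by 1.22 on the log2 scale in naive cells and by 1.29 in pretreated cells (edgeR adjusted p = 2.4e-05 and 1.4e-06, positive in every alternative). KO libraries rose (33.6 and 35.2 to 55.3 CPM in naive cells, 40.8 and 43.7 to 91.7 and 97.7 CPM in pretreated cells), and WT libraries stayed between 1.99 and 4.14 CPM. KO naive 2 h has 1 library, so the naive value has no replicate at that point.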

How the results depend on the processing

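Of 652 recomputed member changes 592 kept direction and side of the threshold, 22 lost the call, 5 gained one and 33 changed sign, all 33 of them without a call before or after; for each, the cause was not tested. With total counts alone, signs changed to -0.23 (Gata4, interferon in naive WT), -0.0129 (Tbx20, interferon in pretreated WT), -0.0343 (Gata6, interferon in pretreated KO), -0.10 (Gata4, washout in WT), 0.13 (Tbx20, genotype difference of washout) and -0.0865 (Gata4, genotype difference in pretreated cells). Without the 3 libraries low in Rn45s and Lars2 they changed for Gata4 to -0.14 (interferon in naive WT), -0.10 (washout in WT), 0.0713 (washout in KO), 0.17 (genotype difference of washout) and -0.15 (genotype difference in pretreated cells), and for Gata6 to 0.0047 (washout in KO). With Rn45s and Lars2 left out, the last Gata4 value was -0.0013. Leaving out 1 library at a time, Gata4 ranged from -0.15 to 0.15 (naive WT), -0.24 to 0.0651 (pretreated WT), -0.29 to 0.16 (pretreated KO), -0.10 to 0.25 (washout in WT), -0.36 to 0.0636 (washout in KO) and -0.18 to 0.27 (genotype difference in pretreated cells). Gata6 ranged from -0.11 to 0.0062 (naive KO), -0.20 to 0.16 (pretreated WT), -0.0445 to 0.71 (genotype difference in naive cells) and -0.0465 to 0.32 (in pretreated cells). Tbx20 ranged from -0.19 to 0.25 (pretreated WT) and -0.23 to 0.10 (genotype difference of washout). For interferon in naive WT, 1 member was called, against 2 with total counts, 0 with DESeq2, 0 without the 3 libraries and 0 to 2 leaving out 1. For washout in WT 1 became 0 in all of these, and for washout in KO 1 became 0 with total counts. Counts of all genes called moved by over 1.5 times with total counts: 5002 to 3251 (naive KO), 3138 to 1188 (pretreated WT), 3307 to 1667 (washout in WT), 2995 to 606 (washout in KO), 2113 to 562, 1247 to 329 and 445 to 75 (genotype differences in naive cells, in pretreated cells and of washout). Without the 3 libraries washout in WT gave 2172 and the last 2 differences 733 and 219. Leaving out WT naive 0 h replicate 1 gave 2737 for naive WT (4229), 2076 for washout in WT and 281 for its genotype difference, KO naive 0 h replicate 2 gave 1897 for washout in KO and 262 for that difference, and KO pretreated 0 h replicate 2 gave 1956 and 274. Same-numbered libraries did not deviate together (21 correlations from -0.018 to 0.064, 5 below 0, so not every library deviated with its own number), and the replicate block changed no member call and gave 650 genes for the genotype difference of washout in place of 445, and 1.24 and 1.29 for the Tbx20 differences. Scaling without Rn45s and Lars2 raised mean levels to 9.43 CPM for Nkx2-5 in WT, 3.48 and 2.56 for Gata4 in WT and KO, 2.99 and 32.6 for Gata6, and 4.32 for Tbx20 in WT. Depth limits Gata4 in both genotypes, at 43 to 121 counts per library, Gata6 and Tbx20 in WT, at 42 to 161, and Nkx2-5 in KO, at 0 to 1.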
